A study of Homo sapiens with 4 samples.

Results

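The genes described are the nuclear-encoded subunits of oxidative phosphorylation, the mitochondrial enzymes of respiration and ATP synthesis, compared between a drug-resistant leukaemia line and its parent. They were chosen by name, as the genes whose platform symbol begins with NDUFA, NDUFB, NDUFC, NDUFS or NDUFV and a number, with UQCR, with SDH and A to D, with COX4 to COX8 and letters A to C or digits, or with ATP5. Of 18417 genes measured by a probe set of a single gene, 77 met that rule: 33 of complex I, 3 of complex II, 8 of complex III, 14 of complex IV and 19 of complex V. Where a gene had several probe sets, as 7 of the 77 did, the brightest over the 4 arrays was used. Probe set numbers on this platform run by chromosome. For 98% of 19426 probe sets of a single gene, the gene's own chromosome was the commonest among the 20 numbered nearest. The probe sets used for 4 of the 77 genes (NDUFV2, SDHC, SDHD and ATP5MK) were numbered among those of another chromosome, so they may read copies of these genes. Their other probe sets are given beside them. The symbol rule also takes in 4 genes that are not subunits of the complexes: the ATP synthase inhibitor ATP5IF1, the copy ATP5MGL and the pseudogenes ATP5F1EP2 and UQCRBP1. It leaves out the subunit genes NDUFAB1, COX4I1, COX4I2, COX7A2L and CYC1, and NDUFA4, SDHB and UQCRFS1 were not analysed here.

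Oxidative phosphorylation makes most of a cell's ATP from the electrons of NADH and succinate. Complex I (NADH dehydrogenase) and complex II (succinate dehydrogenase) pass electrons through coenzyme Q to complex III (cytochrome bc1 complex), and cytochrome c carries them on to complex IV (cytochrome c oxidase), which reduces oxygen. Complexes I, III and IV pump protons across the inner mitochondrial membrane, and complex V (ATP synthase) uses the gradient. Most subunits are encoded in the nucleus and imported, and a small hydrophobic core is encoded in mitochondrial DNA. Some acute myeloid leukaemia cells are known to rely on mitochondrial respiration.

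MV4-11R is a PKC412-resistant line made from the human acute myeloid leukaemia line MV4-11 by 3 months of culture in rising doses of PKC412 (midostaurin), a tyrosine kinase inhibitor. MV4-11, the drug-sensitive parent, is known to carry an MLL fusion and an internal tandem duplication of FLT3. Neither lesion was checked on these arrays. Each line was hybridised to 2 Affymetrix arrays, and the series concerns EZH2, which the labels give as low in MV4-11R and high in MV4-11. MV4-11R is a single derivative, so its differences cannot be told apart from those of the cells that grew out during selection. The labels do not say whether the 2 replicates of a line were separate cultures, so a p-value reflects only how these arrays spread, which may be technical.

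Values are log2 signal as deposited, and a difference is MV4-11R minus MV4-11, so 1 unit is a doubling. A gene is said to have risen or fallen where limma's moderated test gave a Benjamini-Hochberg adjusted p under 0.05 over all 18417 genes. Probe sets differ in how brightly they bind, so levels are compared between lines and not between genes. Median signal lay between 6.75 and 6.78 on the 4 arrays. The 95th percentile of 341 olfactory receptor genes, 6.26, served as the background guide. EZH2 read 9.90 and 9.29 in MV4-11R, against 9.75 and 9.74 in MV4-11, a difference of -0.14 (adjusted p = 0.734), so its RNA did not separate the lines. Myeloid markers were well above the guide in both lines: SPI1 averaged 11.40 in MV4-11R and 11.44 in MV4-11, and LYZ 11.76 in MV4-11R and 12.45 in MV4-11. Of 8 myeloid markers 4 fell, with CSF1R (-1.73) and FLT3 (-0.93) lowest, while CD14 (0.77 (SE 0.24, adjusted p = 0.0855)) and MPO (0.47 (SE 0.21, adjusted p = 0.216)) read higher on both MV4-11R arrays without passing. Summed log2 levels of the 8 were 77.35 to 77.65 in MV4-11R and 79.81 to 81.01 in MV4-11. Among 6 T and NK cell markers NKG7 rose by 0.94 and 4, CD3D, CD3E and CD3G among them, were at or below the guide on all arrays, with sums of 38.61 to 39.28 in MV4-11R and 37.67 to 38.18 in MV4-11. Of 4 B cell markers PAX5 rose by 0.80, CD79B fell by 1.09 and MS4A1 was below the guide, with sums of 26.36 to 26.96 in MV4-11R and 26.62 to 26.86 in MV4-11. None of 3 erythroid markers passed limma's test (1 with an unadjusted p under 0.05, KLF1 at 0.38), and KRT18 fell by 0.58 among 7 epithelial and fibroblast markers. The PAX5 and KRT18 calls were each lost without MV4-11 replicate 1 or replicate 2, PAX5 also without MV4-11R replicate 1 and KRT18 without MV4-11R replicate 2 (highest adjusted p 0.0773 and 0.123). Fewer cells of a type and less RNA per cell cannot be told apart in these bulk samples, and the part of these markers in the results was not tested.

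Few of the 77 genes passed limma's test. Among them 4 rose (5.19%) and 0 fell by limma, against 7.92% of all genes that rose and 7.13% that fell. The 4 rises were NDUFA9, NDUFA11 and NDUFB9 of complex I and ATP5F1A of complex V. At an unadjusted p under 0.05, 11 were higher and 4 lower in MV4-11R, beside 15.6% higher and 13% lower over all genes. The absolute difference had a median of 0.19 over the 77 genes and 0.17 over all genes.

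Differences leaned upward over the 77 genes. A positive difference was found for 50 of the 77 genes (64.9%), against 51.5% of all genes, and the median difference was 0.08 beside 0.01 over all genes. That median was 0.05 without MV4-11 replicate 1, 0.03 without MV4-11R replicate 2, 0.12 without MV4-11R replicate 1 and 0.04 with arrays centred on their medians. With the regional shift removed it was 0.05. These comparisons with all genes were not matched for signal. Median signal on the 4 arrays was 9.64 to 9.91 for the 77 genes and 7.34 to 7.43 for the 18417 genes tested. Both MV4-11R arrays lay above both MV4-11 arrays for 30 of the 77 (39%), where 29.6% of all genes did so, and below them for 12 (15.6%), where 26% of all genes did. Ribosomal protein genes, another set of small and bright transcripts used as a sign of RNA quality, had a median difference of 0.12, with 50 of 62 positive, 1 risen and 1 fallen. Their risen count was 0 without MV4-11R replicate 2 or MV4-11 replicate 1, and 2 without MV4-11 replicate 2. Whether RNA quality has a part in the upward lean was not tested.

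Medians of the complexes lay on both sides of 0. Median differences were 0.19 in complex I, -0.27 in complex II, 0.19 in complex III, 0.00 in complex IV and 0.11 in complex V. Positive differences were found for 22 of 33 genes of complex I, 1 of 3 of complex II, 7 of 8 of complex III, 7 of 14 of complex IV and 13 of 19 of complex V. Over all genes 51.5% were positive. The complex IV values include COX6B2, COX7A1, COX8C and COX7B2, which lay below the background guide. Over its 9 ubiquitous subunits 5 were positive and the median was 0.01. Measured as the median departure of a complex's genes from their own mean over the 4 arrays, complex I stood at 0.06 and 0.09 in MV4-11R, against -0.14 and -0.03 in MV4-11. For complex III these were 0.04 and 0.11 in MV4-11R, against -0.18 and -0.02 in MV4-11. Complex V stood at 0.03 and 0.07 in MV4-11R, against -0.08 and 0.02 in MV4-11. Complex IV overlapped between the lines, at -0.08 and 0.01 in MV4-11R, against -0.05 and 0.08 in MV4-11. Complex II went the other way, at -0.12 and -0.11 in MV4-11R, against 0.13 and 0.14 in MV4-11, over 3 genes. Its median difference of -0.27 is the value of SDHD, whose probe set is numbered among those of another chromosome. The complex II median was -0.20 with own-chromosome probe sets, an alternative added after seeing the data. Genes of a complex are not replicates and no test was made between complexes. The complex I median was 0.11 without MV4-11 replicate 1 and 0.26 without MV4-11 replicate 2. That of complex III was 0.13 without MV4-11 replicate 1. The complex IV median was -0.08 without MV4-11 replicate 1 and 0.05 without MV4-11 replicate 2. For complex V it was 0.03 without MV4-11R replicate 2 and 0.04 without MV4-11 replicate 1.

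**Figure D1:**
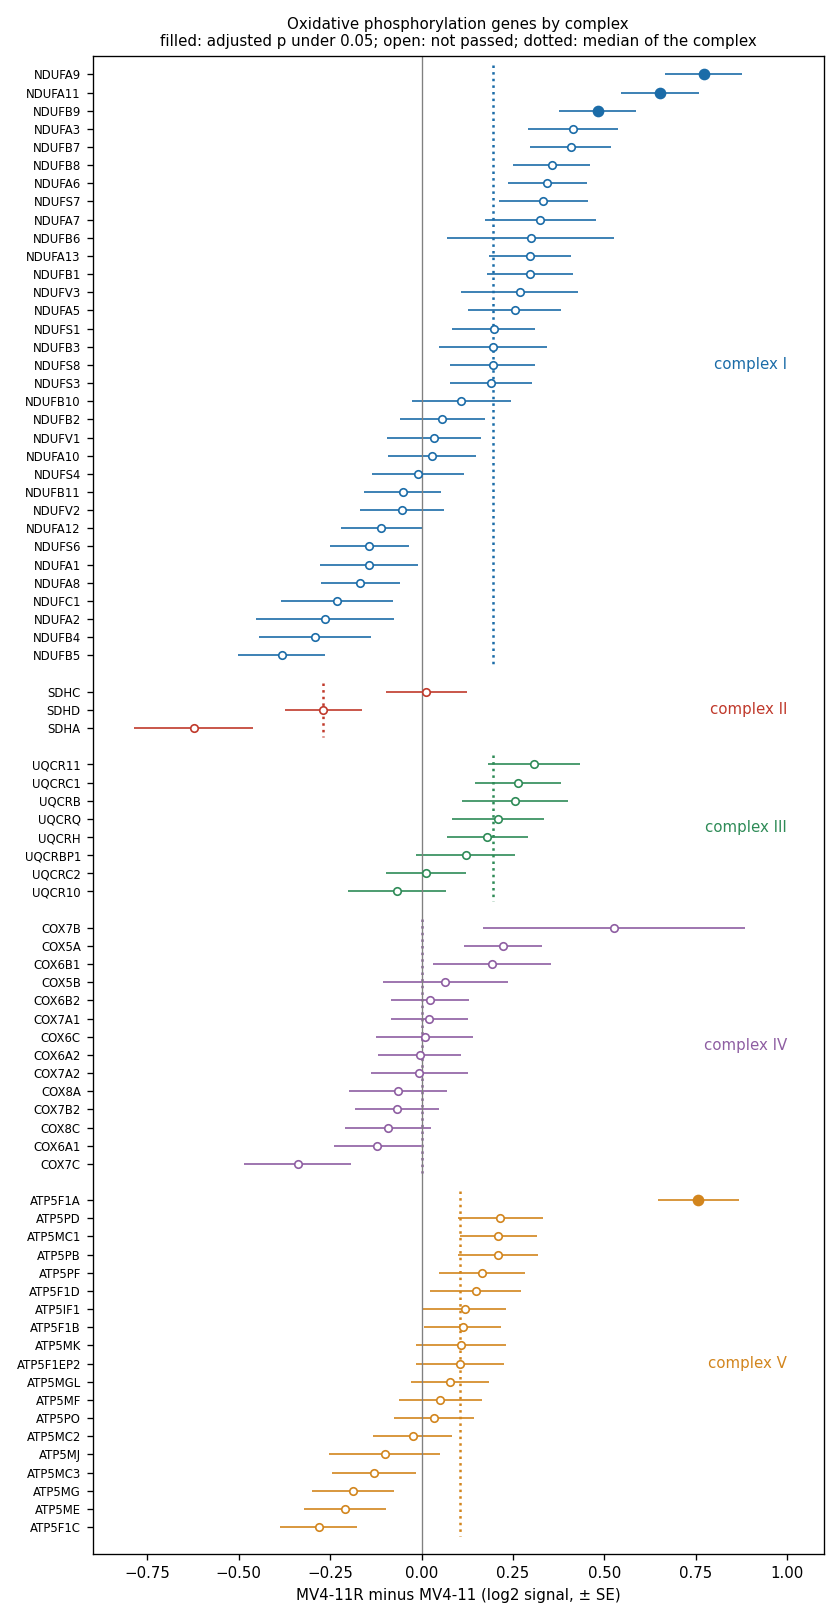
Difference of each oxidative phosphorylation gene, MV4-11R minus MV4-11 (log2 signal, horizontal axis), with its standard error, grouped by complex. Filled points passed limma's test (4 genes), open points did not, and dotted lines mark the median of each complex. Complex I spreads from -0.38 (NDUFB5) to 0.77 (NDUFA9), and complex IV from -0.34 (COX7C) to 0.53 (COX7B).

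NDUFA9, an accessory subunit near the junction of the matrix arm and the membrane arm of complex I, had the largest difference of the 77 genes. Its signal was 10.79 and 10.75 in MV4-11R, against 10.00 and 10.00 in MV4-11. The MV4-11R arrays stood well above the MV4-11 arrays, which read alike, and the mean was 10.77 ± 0.0331 in MV4-11R and 10.00 ± 2.19e-05 in MV4-11 (SD, n = 2 each). This is a 1.71-fold rise, a difference of 0.77 (SE 0.10, adjusted p = 0.00816), 95% interval 0.51 to 1.03. NDUFA9 (Entrez gene 4704) lies on chromosome 12, and its 30 nearest genes of above-median level had a median difference of -0.01. The rise passed without any 1 array (adjusted p 0.0194 to 0.0339).

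NDUFA11, an accessory subunit of the membrane arm, read 8.54 and 8.48 in MV4-11R, against 7.89 and 7.83 in MV4-11. The lines did not overlap. It rose 1.57-fold, by 0.65 (SE 0.11, adjusted p = 0.0137), 95% interval 0.39 to 0.91. It lies on chromosome 19, where its neighbours had a median difference of 0.22, and with that regional shift removed its difference was 0.44 (adjusted p = 0.0483). It no longer passed when MV4-11R replicate 1 (adjusted p = 0.0506) or MV4-11 replicate 2 (0.0606) was left out.

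NDUFB9, an accessory subunit at the far end of the membrane arm, read 12.02 and 11.98 in MV4-11R, against 11.52 and 11.53 in MV4-11. Replicates lay close together and the lines were apart. It rose 1.40-fold, by 0.48 (SE 0.10, adjusted p = 0.0320), 95% interval 0.23 to 0.74. Its neighbours on chromosome 8 had a median of 0.30, and with the regional shift removed its difference was 0.15 (adjusted p = 0.453). Leaving out any 1 array ended the call, with adjusted p of 0.108 without MV4-11R replicate 1, 0.0728 without MV4-11R replicate 2, 0.128 without MV4-11 replicate 1 and 0.115 without MV4-11 replicate 2.

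**Figure D2:**
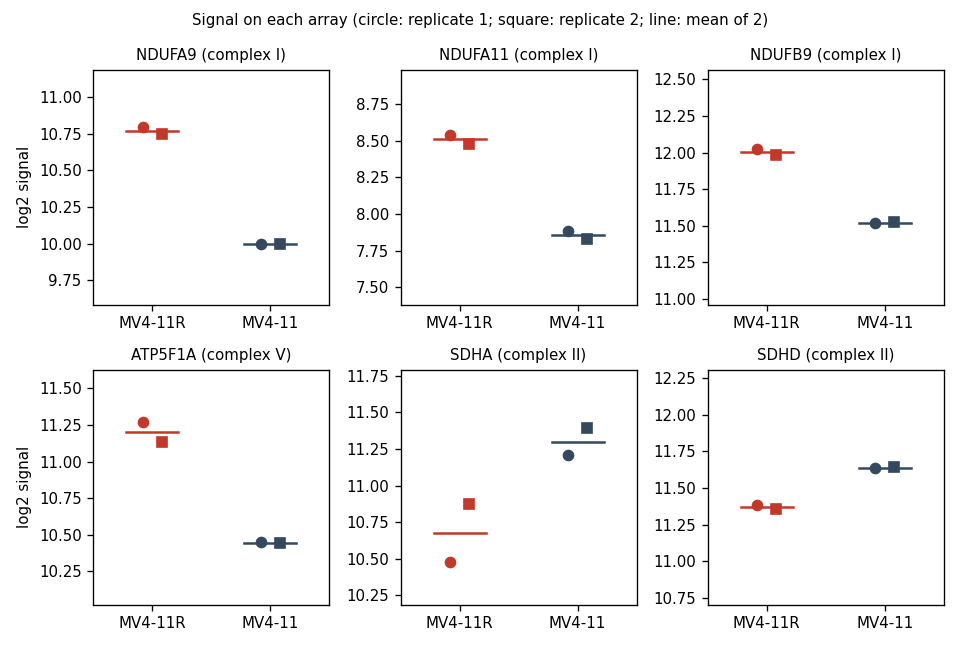
Log2 signal (vertical axis, the same span in every panel) of the 4 genes that rose and of SDHA and SDHD of complex II, with MV4-11R left of MV4-11 in each panel. Circles are replicate 1, squares replicate 2 and lines the mean of the 2 arrays. No array of one line falls within the range of the other in any of the 6 panels, and SDHA has the widest spread within a line.

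The promoters of 3 of the 4 genes that rose, and of SDHA, the gene with the largest negative difference, are shown for the sites of factors known to drive respiratory genes. They are RefSeq sequences of build GRCh38.p14, from 250 bases before to 50 after the annotated start, 5′ to 3′ on the gene's strand. Capitals mark matches on either strand to NRF1 (GCGCANGCG), to an ETS site such as GABPA binds (CCGGAAG) or to YY1 (AAGATGGCG). Each match found in these windows stands apart from the others.
NDUFA9 (chr12:4648864-4649163, plus strand): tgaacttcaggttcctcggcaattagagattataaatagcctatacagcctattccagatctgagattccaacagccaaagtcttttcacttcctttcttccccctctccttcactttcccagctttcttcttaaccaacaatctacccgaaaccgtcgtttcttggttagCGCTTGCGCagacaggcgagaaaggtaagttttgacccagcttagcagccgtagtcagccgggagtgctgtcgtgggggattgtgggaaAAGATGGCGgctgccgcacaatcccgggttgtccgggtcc
NDUFA11 (chr19:5903741-5904040, minus strand): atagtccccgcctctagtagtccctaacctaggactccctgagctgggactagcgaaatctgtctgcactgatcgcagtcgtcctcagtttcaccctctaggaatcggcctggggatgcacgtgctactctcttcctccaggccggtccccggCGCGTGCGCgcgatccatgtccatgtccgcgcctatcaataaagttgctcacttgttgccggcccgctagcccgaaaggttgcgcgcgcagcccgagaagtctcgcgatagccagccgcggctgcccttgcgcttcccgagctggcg
ATP5F1A (chr18:46104178-46104477, minus strand): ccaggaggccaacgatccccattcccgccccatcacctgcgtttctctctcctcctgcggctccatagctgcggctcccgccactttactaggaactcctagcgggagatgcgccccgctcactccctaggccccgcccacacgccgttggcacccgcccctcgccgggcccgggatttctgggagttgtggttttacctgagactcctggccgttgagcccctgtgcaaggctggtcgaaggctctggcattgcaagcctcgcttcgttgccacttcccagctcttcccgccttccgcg
SDHA (chr5:218070-218369, plus strand): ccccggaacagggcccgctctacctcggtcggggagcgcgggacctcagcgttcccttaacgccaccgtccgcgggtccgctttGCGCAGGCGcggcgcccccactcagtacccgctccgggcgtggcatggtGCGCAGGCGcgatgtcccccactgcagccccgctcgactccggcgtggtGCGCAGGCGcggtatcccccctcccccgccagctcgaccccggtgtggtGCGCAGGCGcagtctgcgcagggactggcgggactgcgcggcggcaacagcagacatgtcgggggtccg

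NDUFA9 held 1 NRF1 and 1 YY1 match, NDUFA11 held 1 NRF1 match and SDHA held 4 NRF1 matches, while these letters were not found in the ATP5F1A window. Windows were found for 64 of the 77 genes by Entrez ID. An NRF1 match was present in 21 of the 64 (32.8%), against 8.05% of 27305 windows of all genes. ETS matches were present in 18 (28.1%), against 10.7% of all windows, and YY1 matches in 7 (10.9%), against 1.85%. The windows of all genes were not matched to these 64 for gene type, signal or base composition. The 21 genes with an NRF1 match had a median difference of -0.09 with 8 positive, and the 43 without one a median of 0.18 with 31 positive. With a YY1 match the median was 0.32 (6 of 7 positive), and without one it was 0.03 (33 of 57 positive). With an ETS match it was 0.17 (12 of 18 positive), and without one 0.03 (27 of 46 positive). Among 39 assembly factor windows 23.1% held an NRF1, 30.8% an ETS and 7.69% a YY1 match. These are descriptions of letters in a window, chosen after earlier results were known, and a match is not a bound site.

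The catalytic core of complex I, the subunits conserved from bacteria, carries the flavin and iron-sulphur clusters. None of the 6 core genes measured passed limma's test, beside 15.1% of all genes. An unadjusted p under 0.05 was found for 1, beside 15.6% higher and 13% lower over all genes. NDUFS1, the largest subunit, read 10.53 and 10.46 in MV4-11R, against 10.36 and 10.22 in MV4-11, a difference of 0.20 (SE 0.11, adjusted p = 0.333), with the lines apart. NDUFV1, which binds the flavin and accepts electrons from NADH, read 11.09 and 10.87 in MV4-11R, against 11.01 and 10.88 in MV4-11, and its arrays overlapped. Its difference was 0.03 (SE 0.13, adjusted p = 0.915), 95% interval -0.28 to 0.35. NDUFS7, which carries the last iron-sulphur cluster of the chain, read 9.30 and 9.52 in MV4-11R, against 9.09 and 9.06 in MV4-11. Its difference of 0.33 (SE 0.12, adjusted p = 0.133) had the smallest p among the core genes. NDUFS3 and NDUFS8, also in the matrix arm, differed by 0.19 and 0.19, and NDUFV2 by -0.05 (-0.02 on its other probe set). The 6 had a median of 0.19, near the 0.20 of the 27 accessory genes.

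Accessory genes of complex I spread to both sides. Those with an NDUFA symbol had a median of 0.28 over 12 genes, with 2 risen. Those with an NDUFB symbol had 0.20 over 11, with 1 risen. Over all genes 7.92% rose. NDUFB subunits sit in the distal membrane arm. Just short of the threshold, NDUFB7 read 8.95 and 9.08 in MV4-11R, against 8.60 and 8.62 in MV4-11, with a difference of 0.41 (SE 0.11, adjusted p = 0.0598). NDUFA3 read 10.62 and 10.62 in MV4-11R, against 10.09 and 10.33 in MV4-11, a difference of 0.41 (SE 0.12, adjusted p = 0.0780), and NDUFB8 10.98 and 11.02 in MV4-11R, against 10.61 and 10.68 in MV4-11, a difference of 0.36 (SE 0.11, adjusted p = 0.0785). In each of these genes both MV4-11R arrays lay above both MV4-11 arrays, as they did for 29.6% of all genes. NDUFA6, an LYR-motif protein of the matrix arm, differed by 0.34 (SE 0.11, adjusted p = 0.0923). These were chosen after their values were seen.

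On the negative side, NDUFB5 of the membrane arm had the lowest difference of complex I. It read 10.84 and 11.00 in MV4-11R, against 11.24 and 11.36 in MV4-11, with no overlap, for a difference of -0.38 (SE 0.12, adjusted p = 0.0858). NDUFB4 read 10.24 and 10.63 in MV4-11R, against 10.71 and 10.74 in MV4-11, a difference of -0.29 (SE 0.15, adjusted p = 0.286), and its other probe set held the same values. Both genes lie on chromosome 3, where their neighbours had medians of -0.29 for NDUFB5 and -0.42 for NDUFB4. NDUFA2, a small matrix-arm subunit, differed by -0.26 (SE 0.19, adjusted p = 0.447), with overlapping arrays. NDUFB1, a small membrane-arm subunit, read 7.44 and 7.47 in MV4-11R, against 7.07 and 7.25 in MV4-11, higher on both MV4-11R arrays, at 0.30 (SE 0.12, adjusted p = 0.161). The 16 genes of complex I not named above lay between -0.23 (NDUFC1) and 0.32 (NDUFA7).

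Complex II is the one respiratory enzyme that is also part of the tricarboxylic acid cycle, and all its subunits are nuclear. SDHA, its flavoprotein that oxidises succinate, read 10.48 and 10.87 in MV4-11R, against 11.21 and 11.39 in MV4-11. Both MV4-11R arrays were below both MV4-11 arrays, and the MV4-11R arrays differed from each other. The mean was 10.68 ± 0.278 in MV4-11R and 11.30 ± 0.130 in MV4-11 (SD, n = 2 each), and the difference of -0.62 (SE 0.16, adjusted p = 0.0538), 95% interval -1.02 to -0.23, just missed the threshold. It passed without MV4-11R replicate 2 (-0.82, adjusted p = 0.0237), and not without MV4-11R replicate 1 (-0.43, 0.163), MV4-11 replicate 1 (-0.72, 0.0883) or MV4-11 replicate 2 (-0.53, 0.176). It also passed with arrays centred on their medians (-0.66, 0.0291) or quantile normalized (-0.64, 0.0460). SDHA lies on chromosome 5, and its neighbours had a median of -0.28. With that shift removed the SDHA difference was -0.33 (adjusted p = 0.199). SDHA has near-identical pseudogene copies, so its probes may take up their signal. The 2 probe sets listed for SDHA together with SDHAP1, SDHAP2 and SDHAP3 had differences of -0.69 and -0.65, and one listed for SDHAP1, SDHAP2 and SDHAP4 -0.70.

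The membrane anchors of complex II hold the haem and the coenzyme Q site. SDHD read 11.38 and 11.36 in MV4-11R, against 11.64 and 11.64 in MV4-11, a separation of small size, -0.27 (SE 0.10, adjusted p = 0.155). The probe set used is numbered among those of chromosome 1, whereas the SDHD gene lies on chromosome 11. On the probe set numbered in chromosome 11 the difference was -0.05 (adjusted p = 0.835). SDHC read 11.78 and 11.88 in MV4-11R, against 11.77 and 11.87 in MV4-11, with the lines overlapping and a difference of 0.01 (SE 0.11, adjusted p = 0.966). That probe set is numbered in chromosome 17, and on the one numbered in chromosome 1, where the gene lies, the difference was -0.20 (adjusted p = 0.492). With own-chromosome probe sets, an alternative added after seeing the data, the median of complex II was -0.20.

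In complex III all but 1 of the 8 genes had a positive difference, 0 passed limma's test in either direction, and 0 had an unadjusted p under 0.05. Of all genes 15.1% passed, and 15.6% were higher and 13% lower at that unadjusted p. UQCR11, a small subunit, had the largest, with 9.17 and 9.35 in MV4-11R, against 8.86 and 9.04 in MV4-11 and a difference of 0.31 (SE 0.13, adjusted p = 0.176). UQCRC1, a core protein on the matrix side, read 9.48 and 9.50 in MV4-11R, against 9.13 and 9.32 in MV4-11, a difference of 0.26 (SE 0.12, adjusted p = 0.207), and its lines did not overlap. Its partner UQCRC2 read 11.96 and 12.08 in MV4-11R, against 12.004 and 12.02 in MV4-11, which overlapped, at 0.01 (SE 0.11, adjusted p = 0.969). UQCRH, the hinge protein that helps bind cytochrome c1, differed by 0.18, UQCRB by 0.26, UQCRQ by 0.21 and UQCR10 by -0.07. The pseudogene UQCRBP1 stood near the background guide, at 6.50 and 6.61 in MV4-11R, against 6.29 and 6.57 in MV4-11.

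In complex IV 0 of 14 genes passed limma's test, beside 15.1% of all genes. At an unadjusted p under 0.05 there were 0, beside 15.6% higher and 13% lower over all genes. The median absolute difference was 0.12 over the 9 ubiquitous subunits, beside 0.13 over the genes of complex V, and 0.07 over all 14, which include tissue forms below the background guide. COX5A, which binds the catalytic core from the matrix side, read 11.87 and 11.95 in MV4-11R, against 11.70 and 11.67 in MV4-11. The lines were apart by 0.22 (SE 0.11, adjusted p = 0.244). COX5B, its zinc-binding neighbour, read 11.74 and 11.999 in MV4-11R, against 11.61 and 12.001 in MV4-11, and overlapped, at 0.06 (SE 0.17, adjusted p = 0.871). COX7B had the largest difference, 0.53 (SE 0.36, adjusted p = 0.420), but read 7.14 and 8.02 in MV4-11R, against 6.65 and 7.46 in MV4-11. Replicate 2 was far brighter than replicate 1 in each line, and the lines overlapped. COX7C read 8.79 and 9.09 in MV4-11R, against 9.18 and 9.38 in MV4-11, with MV4-11R below MV4-11, at -0.34 (SE 0.15, adjusted p = 0.194).

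Several complex IV subunits have a ubiquitous form and a form typical of heart and skeletal muscle or of testis. COX6A1, a ubiquitous form, read 12.13 and 12.28 in MV4-11R, against 12.26 and 12.39 in MV4-11 and COX8A 12.06 and 12.12 in MV4-11R, against 12.01 and 12.30 in MV4-11, both overlapping. COX6B1 differed by 0.19 (SE 0.16, adjusted p = 0.523) and COX7A2 by -0.01 (SE 0.13, adjusted p = 0.988). The muscle form COX7A1 was below the background guide on all arrays, at 5.97 and 5.92 in MV4-11R, against 5.91 and 5.94 in MV4-11. So were the testis forms COX6B2 (5.07 and 5.01 in MV4-11R, against 5.04 and 4.99 in MV4-11), COX8C (5.42 and 5.23 in MV4-11R, against 5.42 and 5.42 in MV4-11) and COX7B2 (4.27 and 4.14 in MV4-11R, against 4.22 and 4.32 in MV4-11). COX6A2, the muscle form of COX6A1, read 7.71 and 7.67 in MV4-11R, against 7.62 and 7.77 in MV4-11, above the guide, with a difference of -0.01 (SE 0.11, adjusted p = 0.988). None of these 5 muscle and testis forms passed limma's test, beside 15.1% of all genes. At an unadjusted p under 0.05 there were 0, beside 15.6% higher and 13% lower over all genes. All but COX6A2 lay below the guide, where a change cannot be read. COX6C differed by 0.01.

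Complex V has a catalytic head (F1), a rotating ring of c subunits, a peripheral stalk and small membrane subunits. ATP5F1A, the alpha subunit of the head, read 11.27 and 11.13 in MV4-11R, against 10.45 and 10.44 in MV4-11. The MV4-11 arrays read alike and both MV4-11R arrays were higher, for a 1.69-fold rise of 0.76 (SE 0.11, adjusted p = 0.0103), 95% interval 0.48 to 1.03. The call held without any 1 array (adjusted p 0.0173 to 0.0397). ATP5F1A lies on chromosome 18, where its 30 nearest genes of above-median level had a median difference of 0.73. With that regional shift removed its difference was -0.05 (adjusted p = 0.816). The rise of ATP5F1A was thus about as large as that of its neighbours.

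ATP5F1B, the beta subunit, which pairs with alpha to form the catalytic sites, did not pass the test. It read 12.87 and 12.83 in MV4-11R, against 12.74 and 12.74 in MV4-11, with the lines apart by 0.11 (SE 0.10, adjusted p = 0.578). The gamma subunit ATP5F1C, the central shaft, read lower on both MV4-11R arrays, with 11.46 and 11.43 in MV4-11R, against 11.70 and 11.75 in MV4-11, a difference of -0.28 (SE 0.11, adjusted p = 0.141). The delta subunit ATP5F1D differed by 0.15 (SE 0.12, adjusted p = 0.525), so the 4 measured head genes had differences from -0.28 to 0.76.

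The 3 genes of the c subunit encode the same mature protein with different import signals. ATP5MC1 read 12.52 and 12.48 in MV4-11R, against 12.29 and 12.29 in MV4-11, a difference of 0.21 (SE 0.10, adjusted p = 0.263), with the lines apart. ATP5MC2 read 10.89 and 10.80 in MV4-11R, against 10.85 and 10.89 in MV4-11, overlapping, at -0.02 (SE 0.11, adjusted p = 0.929). ATP5MC3 read 6.87 and 7.03 in MV4-11R, against 7.05 and 7.11 in MV4-11, at -0.13 (SE 0.11, adjusted p = 0.555). All 4 peripheral stalk genes had positive differences, from 0.03 (ATP5PO) to 0.21 (ATP5PD), and 2 of the 5 small membrane subunits did, with ATP5ME lowest at -0.21 and ATP5MK highest at 0.11, or -0.05 on the ATP5MK probe set numbered in its own chromosome. ATP5IF1, the inhibitor of ATP hydrolysis by the complex, differed by 0.12 (SE 0.11, adjusted p = 0.588). The pseudogene ATP5F1EP2 differed by 0.11, and ATP5MGL was near the guide at 6.33 and 6.29 in MV4-11R, against 6.27 and 6.20 in MV4-11.

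Differences lay on the side of their chromosomal neighbours on some chromosomes and not on others. On chromosome 19 lie 11 of the genes, with a median difference of 0.31, and NDUFA11 alone among them passed. The 9 above the background guide all had positive differences, and COX6B2 and COX7A1, below it, were at 0.02 each and at -0.01 each with arrays centred on their medians. They are NDUFA3, NDUFA7, NDUFA11, NDUFA13, NDUFB7, NDUFS7, UQCR11, COX6B1, COX6B2, COX7A1 and ATP5F1D. Of the other 1297 genes measured on chromosome 19, 207 rose and 70.9% had a positive difference, with a median of 0.13. Over all genes 7.92% rose and the median was 0.01. Without the chromosome 19 genes the median of the remaining 66 genes was 0.04. For complex I it was 0.06 over the remaining 27 genes, beside 0.19 over all 33. The chromosome 19 genes had a higher median than the whole list, so leaving them out lowers these medians in any case. No other chromosome was left out in this way. On chromosome 18, which holds ATP5F1A, 189 of the other 262 genes had a positive difference. Elsewhere, as on chromosomes 4, 5 and 17, the genes of the list and their neighbours had medians on opposite sides of 0. These were -0.21 with neighbours at 0.07 on chromosome 4, and -0.20 with 0.05 on chromosome 5. On chromosome 17 they were 0.21 with -0.14. Across the 77 genes the difference and the neighbours' median had Pearson's r = 0.42 and Spearman's rho = 0.26. Over all 18362 genes with neighbours these were 0.23 and 0.20, and over the 76 genes without ATP5F1A 0.33 and 0.23. These describe genes of the same 4 arrays, which are not independent. For the 4 genes whose probe sets are numbered in another chromosome, the neighbours are those of the gene. Chromosome copy number was not measured here.

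**Figure D3:**
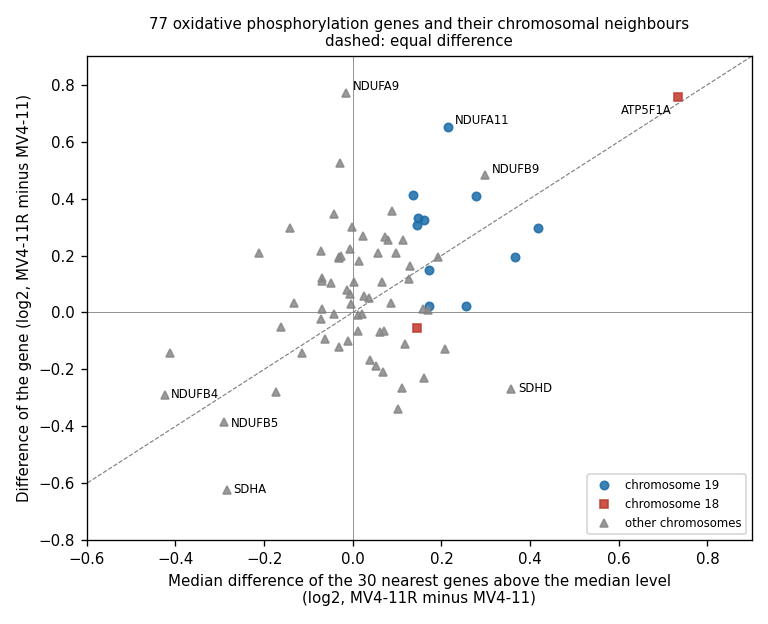
Difference of each of the 77 genes (vertical axis, log2, MV4-11R minus MV4-11) against the median difference of its 30 nearest genes above the median level (horizontal axis, log2). Circles are genes on chromosome 19, squares chromosome 18 and triangles other chromosomes, and the dashed line marks equal differences. ATP5F1A lies near that line at 0.73 and 0.76, whereas NDUFA9 lies far above it with neighbours at -0.01.

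Assembly factors, the proteins that build the complexes without staying in them, were a separate list. Of 45 assembly factors measured, 13 rose (28.9%) and 0 fell, and 39 had a positive difference (86.7%), with a median of 0.30. Over all genes 7.92% rose, 7.13% fell and 51.5% had a positive difference. By complex, 4 of 15 factors for complex I, 4 of 12 for complexes II, III and V, and 5 of 18 for complex IV rose. Without 1 array the first count ran from 0 (MV4-11 replicate 1) to 3, the second from 1 (MV4-11 replicate 2) to 4, and the last was 3 whichever array was left out. All 18 factors for complex IV had positive differences, from 0.12 to 0.80, whereas the 14 complex IV subunit genes had a median of 0.00. The difference between assembly factors and subunits was not tested, as genes are not replicates. NDUFAF1, which acts on the membrane arm of complex I, read 7.83 and 8.004 in MV4-11R, against 6.86 and 7.22 in MV4-11, a rise of 0.88 (SE 0.15, adjusted p = 0.0168). NUBPL, which delivers iron-sulphur clusters to complex I, rose by 0.74 (SE 0.15, adjusted p = 0.0283). BCS1L, which inserts the Rieske protein into complex III, read 8.91 and 8.74 in MV4-11R, against 7.93 and 8.10 in MV4-11, a rise of 0.81 (SE 0.12, adjusted p = 0.0116), and SDHAF3 of complex II rose by 0.75 (SE 0.14, adjusted p = 0.0221). COX18, which inserts a core subunit of complex IV, rose by 0.80 (SE 0.13, adjusted p = 0.0132) and SCO1, a copper chaperone of complex IV, by 0.74 (SE 0.10, adjusted p = 0.00939). The total of 13 became, with 1 array left out, 7 (MV4-11R replicate 1), 10 (MV4-11R replicate 2), 5 (MV4-11 replicate 1) and 7 (MV4-11 replicate 2), and with the regional shift removed 12. NDUFAF1 no longer passed when MV4-11 replicate 1 was left out (adjusted p = 0.0526). That on NUBPL was lost without any array but MV4-11 replicate 2 (highest adjusted p 0.0911), and that on SDHAF3 without any but MV4-11R replicate 1 (highest adjusted p 0.0752).

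Subunits reach the complexes through protein import. For the lists that follow, the shares over all genes are again 7.92% risen and 7.13% fallen. Of 16 genes of mitochondrial protein import 8 rose and 0 fell, with a median of 0.52, led by TIMM50 at 1.03 (SE 0.13, adjusted p = 0.00602) and TIMM44 at 1.02 (SE 0.17, adjusted p = 0.0156), both of the inner membrane translocase. That count was 5 without MV4-11 replicate 1 or replicate 2. TIMM50 and TIMM44 lie on chromosome 19, where their neighbours had median differences of 0.165 and 0.16. Of 13 coenzyme Q synthesis genes 3 rose and 0 fell (median 0.35), among them the methyltransferase COQ3 at 1.04 (SE 0.13, adjusted p = 0.00546) and COQ10A at 0.67 (SE 0.15, adjusted p = 0.0329), and the count was 1 without MV4-11 replicate 1. The COQ10A call was lost without MV4-11R replicate 2 (0.0951) or MV4-11 replicate 1 (0.128). Of 17 carriers, translocases and subunits outside the symbol rule 3 rose and 0 fell, including DHODH (0.59) and GPD2 (0.52). With 1 array left out the carrier count was 0 without MV4-11R replicate 1 or MV4-11 replicate 2 and 1 without either of the other arrays. Cytochrome c, CYCS, read 9.42 and 9.40 in MV4-11R, against 8.99 and 8.46 in MV4-11, a difference of 0.69 (SE 0.19, adjusted p = 0.0593).

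Lists around the respiratory chain went both ways. Of 16 tricarboxylic acid cycle genes 1 rose, the dehydrogenase subunit DLD (0.48), and 2 fell, SUCLA2 at -1.19 (SE 0.10, adjusted p = 0.00229) and OGDH at -0.59 (SE 0.13, adjusted p = 0.0336), with a median of -0.06. The DLD call was lost without any 1 array, and the OGDH call without MV4-11R replicate 1 (0.116), MV4-11 replicate 1 (0.126) or MV4-11 replicate 2 (0.0823). SUCLA2 lies on chromosome 13, where its neighbours had a median of -0.997, and with that regional shift removed its difference was -0.28 (adjusted p = 0.172). Of 17 regulators of mitochondrial gene expression TFB1M (0.71) and PPRC1 (0.54) rose and CREB1 fell by 0.53, while NRF1 (-0.12, adjusted p = 0.563) and GABPA (0.03, 0.905) did not pass. The calls on GPD2, PPRC1 and CREB1 were lost without any 1 array, with highest adjusted p of 0.157, 0.170 and 0.117, and those on DHODH and TFB1M without 3 of the 4, with highest adjusted p of 0.107 and 0.150. The 13 mitochondrially encoded subunit genes were not analysed here.

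**Figure D4:**
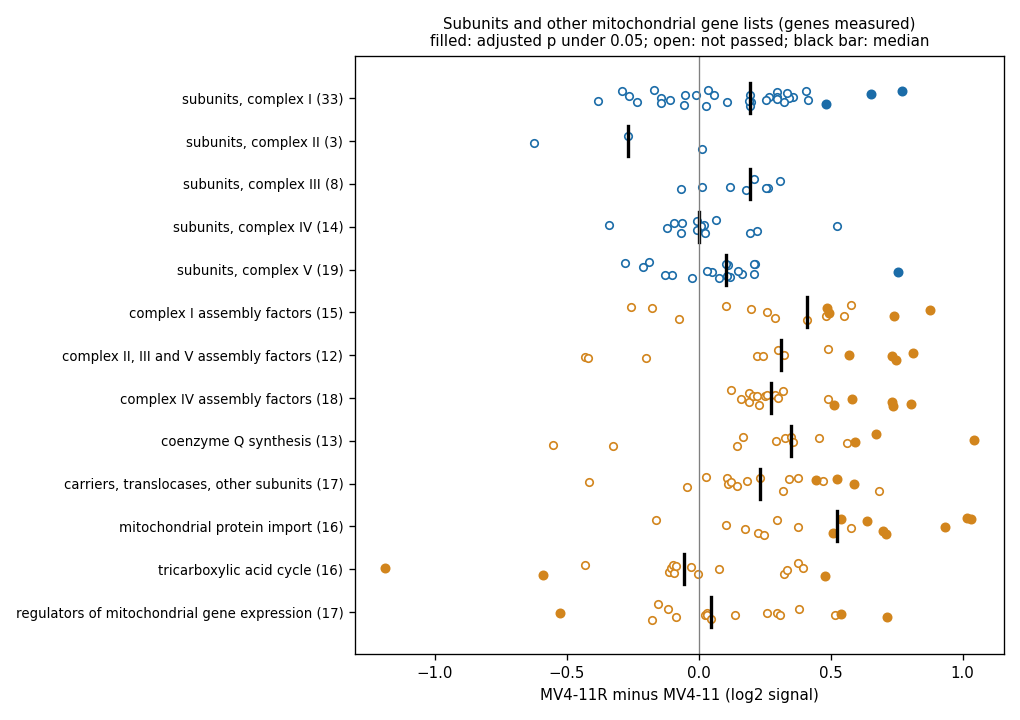
Differences (log2 signal, MV4-11R minus MV4-11, horizontal axis) of the subunit genes by complex (blue) and of the other mitochondrial gene lists (orange), each point a gene, with the number of genes in brackets. Filled points passed limma's test and black bars mark medians, which run from -0.27 for complex II subunits to 0.52 for protein import. The complex II bar is the value of SDHD, from a probe set numbered outside the gene's chromosome.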

How the data were processed

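MV4-11R and MV4-11 RNA was hybridised to 2 arrays each (Affymetrix Human Gene 1.0 ST). The deposited values are log2 signal per probe set. Per the submitters' processing notes, the authors used RMA and Affymetrix Expression Console, with no versions given. RMA corrects background, normalizes by quantiles and summarises probes, and it compresses differences of dim genes. That the scale is log2 was read from the range of the values. The genome build of the arrays is not given in the sources used here, so gene names and chromosomes come from the platform annotation and RefSeq GRCh38.p14.

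Of 33297 probe sets, 19460 were paired with 1 gene, 1754 with several and 12083 with none listed. For each gene the brightest single-gene probe set was kept, with no filter on level. The 18417 genes were tested with limma 3.58.1 in R 4.3.3 (lmFit and eBayes, 2-sided, Benjamini-Hochberg over all genes). The number of arrays limits the precision. As a check on simulated data for this comparison (18417 genes, 200 of them changed, 5 data sets), limma called 0% of genes changed by 0.5 log2 units, 42.4% at 1, 78.8% at 2 and 90% at 3. In these arrays far more genes passed, so the shares describe the simulated data only. A regional shift is the median deviation of the 30 nearest genes above the median level, subtracted array by array.

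The genes and lists were chosen with earlier results of these data known. Named were the genes of the rule past adjusted p 0.05, in each complex those with the largest difference and the highest and lowest signal, a preset set of catalytic subunits and isoforms, and up to 2 rises and 2 falls from each other list. Genes named outside this rule were chosen after their values were seen. Alternatives were median centring, quantile normalization, a filter at the 25th percentile of level, the mean of a gene's probe sets, an intensity trend, the replicate number as a block, removal of the regional shift, a list by role, and leaving out each array. Choosing the probe set numbered in the gene's own chromosome was added after seeing the data.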

Additional observations from a re-analysis of the deposited data

How the results depend on the processing

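The 4 rises of oxidative phosphorylation genes were the same genes under median centring, quantile normalization, the filter at the 25th percentile, the mean of probe sets, the intensity trend, the replicate block and own-chromosome probe sets. The filter added NDUFB7 (5 rises), and the block added NDUFB7 and COX7B (0.53, adjusted p = 0.0235), giving 6. With the regional shift removed 2 rose (NDUFA9 and NDUFA11), ATP5F1A turned to -0.0508 (adjusted p = 0.816), and leaving out 1 array left 2 to 3 rises. The number that fell, 0, became 1 under median centring, quantile normalization, the filter, the trend and the block (SDHA each time, adjusted p = 0.0186 with the block), and 1 with the regional shift removed (SDHD, -0.54, adjusted p = 0.0241, from the probe set numbered outside the gene's chromosome, to which that shift may not apply). It was 0 to 1 without 1 array. The complex II median was -0.30 with median centring, -0.28 with quantile normalization, -0.16 with the mean of probe sets, -0.33 with the regional shift removed and -0.20 with own-chromosome probe sets, and it ran from -0.28 to -0.26 without 1 array. That last range is also the range of SDHD alone. With the regional shift removed the medians of complexes IV and V were -0.0792 and 0.0513. Without 1 array the median ran from 0.11 to 0.26 in complex I, from 0.13 to 0.27 in complex III, from -0.0779 to 0.0519 in complex IV and from 0.0323 to 0.11 in complex V. Over all genes 2772 passed, 3642 with the replicate block and 1588 to 2479 without 1 array, where fewer samples enter the fit. The cause of the other changes was not tested.

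Replicate numbers are shared between the lines, but no label says they mark a day or batch. Deviations of same-numbered arrays from their line means correlated at 0.26 over genes. With 2 arrays a line, genes that did not pass may still differ. The simulated data held 200 changed genes, far fewer than the 2772 that passed here, so their recovery does not give the sensitivity of this comparison. Genes at or below the background guide give no reading of change.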

Other observations

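Probe sets shared with other genes were left out of the tests and are given as values. One listed for NDUFC2 and its readthrough NDUFC2-KCTD14 read 12.07 and 12.31 in MV4-11R, against 11.80 and 11.90 in MV4-11, a difference of 0.34, above on both MV4-11R arrays. One listed for NDUFS5 with RPL10, SNORA70 and DNASE1L1 read 11.9997 and 12.41 in MV4-11R, against 11.61 and 11.68 in MV4-11, a difference of 0.56. One listed for ATP5F1E and a readthrough gene differed by 0.02, with the lines overlapping. One listed for UQCRH, UQCRHL and GNA13 differed by -0.20, where the UQCRH probe set of its own had 0.18.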
